A study of Homo sapiens with 6 samples.

Results

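The immunoglobulin heavy-chain, light-chain, surrogate light-chain and J-chain transcripts of the B-cell lymphoma line RL were examined after exposure to LY317615. Members were taken by gene symbol: a probe set (the group of oligonucleotides that reads a transcript on an Affymetrix array) was included if its annotation held an immunoglobulin heavy, kappa, lambda or lambda-like symbol, or JCHAIN, VPREB1 or VPREB3, alone or with other symbols. IGHMBP2, which is not an immunoglobulin gene, was left out. The rule found 33 of 33297 probe sets. They divided into 13 heavy-chain probe sets, 15 kappa probe sets named IGKC, 4 probe sets of surrogate light-chain and related genes, and 1 of JCHAIN. Of the 33, 18 carried 1 symbol and 15 carried several.

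RL cells given LY317615 for 48 h (3 arrays) were set against untreated RL cells, also marked 48 h in their titles (3 arrays). LY317615 is enzastaurin, a small molecule that inhibits protein kinase C, chiefly its beta form. The labels give its dose as 2.5 mM, a unit that could not be checked here, and name no vehicle for the untreated cells. Both groups carry the t(14;18) translocation, which joins BCL2 to the immunoglobulin heavy-chain locus, and RL is 1 established human line, so both groups share its rearranged antibody genes. Each array read total RNA labelled for the GeneChip Gene 1.0 ST design. The series calls the replicates independent without saying that they were separate cultures, so the p-values speak only for array-to-array spread, some of which may be technical.

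The LY317615 arrays all had higher medians than the untreated arrays, with median intensities of 60.0 to 61.4 in LY317615 arrays and 56.7 to 58.2 in untreated arrays. LY317615 replicate 3 stood apart: its second principal component score was -26.9, against 8.95 and 26.8 for the other LY317615 arrays, and its array weight of 0.457 was the lowest of the 6. Over the whole table, 3489 probe sets were higher and 4972 lower in LY317615 cells at an adjusted p under 0.05 (limma, Benjamini-Hochberg over all probe sets). With the array medians set equal the split was 2236 higher and 6229 lower, and after cyclic loess, a scaling fitted along intensity, 3526 and 4220. The labelled cell type was checked against 6 B-cell genes, MS4A1, CD79A, CD79B, PAX5, CD22 and BLK, which lay between the 87.6th and 97.6th percentile of all probe sets in untreated cells. Of the 6 B-cell genes 5 fell, and their summed intensity ran from 7183 to 7873 over LY317615 arrays and from 10250 to 10762 over untreated arrays. Over all 18417 genes with a probe set of their own, 9.36% were higher and 18.5% lower. Between log2 intensities of 7.81 and 10.43, where PAX5, CD22 and BLK lay, 40.2% were lower. The 8 T-cell genes were not all dim. LCK, a kinase gene of T cells, read 7.93, 8.16 and 7.92 in LY317615 cells, against 9.05, 8.88 and 8.92 in untreated cells, where it lay at the 83.7th percentile, and it fell (adjusted p = 0.00160). CD247 read 5.67 in LY317615 cells and 6.18 in untreated cells, while CD3D, CD3E, CD3G and CD2 read 4.18 to 5.43 in LY317615 cells and 3.89 to 4.98 in untreated cells. The summed intensity of the 8 ran from 487 to 526 over LY317615 arrays and from 710 to 779 over untreated arrays. LCK was by far the brightest, so the sum mostly follows it. CD3D, CD3E, CD3G, ZAP70 and CD5 had log2 fold changes of 0.11 to 0.45, CD2 -0.02 and CD247 -0.51, and none of these passed. Of 7 myeloid genes 2 rose and 0 fell, with sums of 326 to 391 over LY317615 arrays and 252 to 268 over untreated arrays. The part of these changes in the immunoglobulin readings was not tested. RL is an established human line, so these marker lists describe transcripts of that line and not shares of different cell types. Bulk RNA averages over the cells of a culture, so a change in all of them or in some was not tested.

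A B cell joins 1 rearranged heavy-chain variable region to a constant region, mu for IgM and delta for IgD before class switching, and pairs it with a kappa or a lambda light chain. On precursor B cells the light chain's place is taken by a surrogate made of VPREB1 and IGLL1 (lambda 5). The J chain links IgM and IgA units into polymers as they are secreted. Variable genes of 1 subgroup and the constant genes of 1 class are close copies of each other, so a probe set can read transcripts of several of them.

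In LY317615 cells most immunoglobulin readings stayed close to those of untreated cells. Of the 33 probe sets, 5 rose (15.2%) and 3 fell (9.09%) at an adjusted p under 0.05, against 10.5% higher and 14.9% lower over all probe sets. With the array medians set equal 1 was higher and 3 lower, and after cyclic loess 2 and 3. The 25 others did not pass. The median log2 fold change of the 33 was 0.05 (0.02 over all probe sets). Of the 33, 31 differed by less than 0.5 on the log2 scale, as did 28501 of all 33297 probe sets. All 5 that rose were IGKC probe sets, and those that fell were IGHV5-78, 1 further heavy-chain probe set and 1 IGKC probe set. Groups were fully separate in 12 of the 33 probe sets, against 44.8% over the whole table. The counts depended on single arrays: with each array left out in turn, 0 to 3 probe sets rose and 2 to 3 fell.

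**Figure D1:**
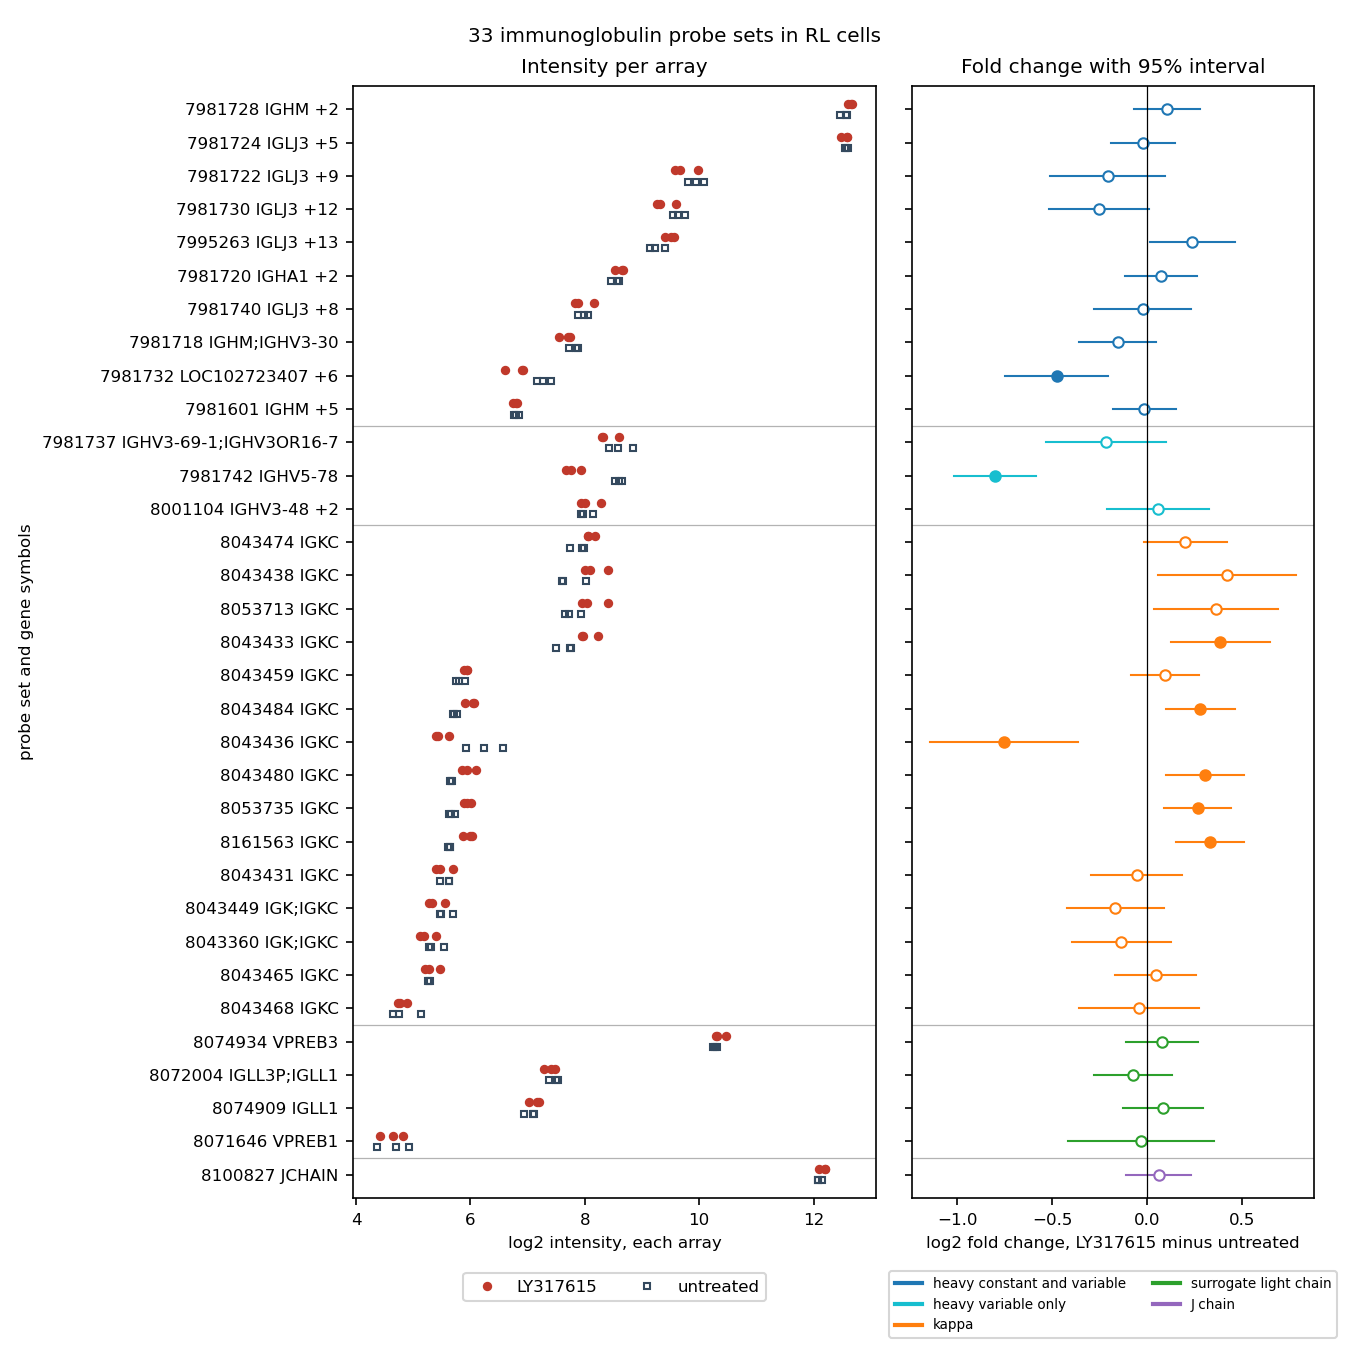
Log2 intensity of each immunoglobulin probe set on each array (left; filled circles LY317615, open squares untreated, 3 arrays each) and log2 fold change, LY317615 minus untreated, with its 95% interval from limma (right; filled points passed an adjusted p of 0.05, and colours mark the chain). A plus sign and a number stand for further symbols of the probe set; 8 filled points are seen, 5 of them to the right of 0 and all 5 of those IGKC.

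Intensity cannot rank transcripts, because probe sets differ in how well their probes bind and no detection calls were used. The position of a probe set among all probe sets of the array is given instead as a description. As a yardstick for dim readings, 18 genes of liver, epithelium, muscle, pancreas and glia lay at a log2 intensity of 2.65 to 6.08 in untreated cells. In those cells 22 of the 33 immunoglobulin probe sets read above the highest of them, KRT14, as did 15411 of all 33297 probe sets. The 22 comprised all 13 heavy-chain probe sets, 5 of the 15 IGKC probe sets, 3 of the 4 surrogate light-chain and related probe sets, and JCHAIN. No probe set was annotated to a lambda constant or variable gene or to the epsilon gene, and these chains were not analysed here.

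**Figure D2:**
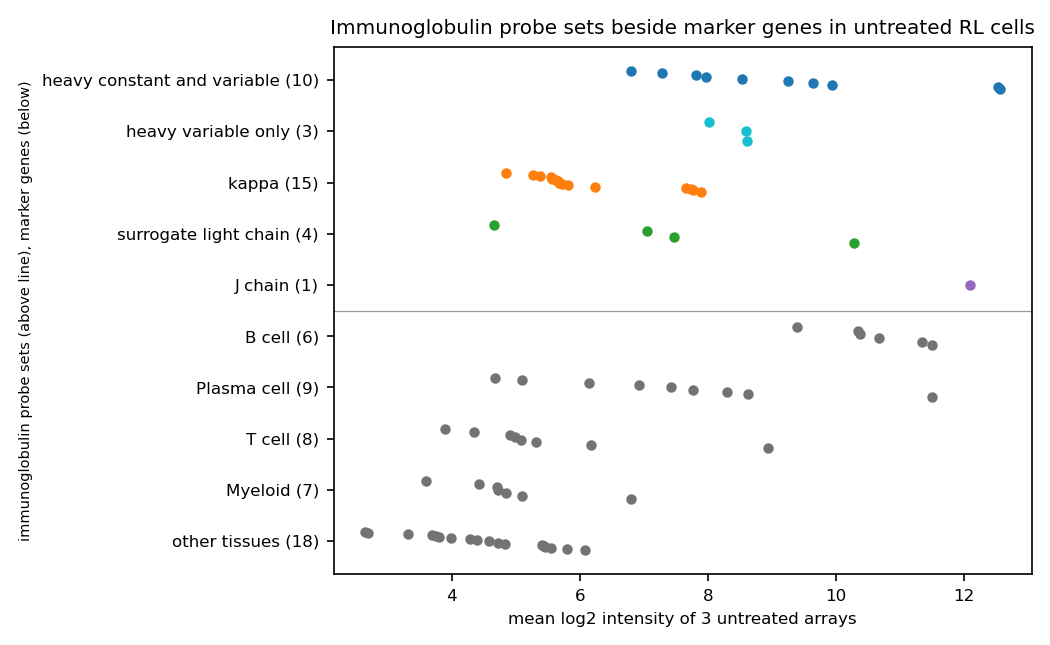
Mean log2 intensity over the 3 untreated arrays of each immunoglobulin probe set (coloured, by chain) and of the marker genes used as landmarks (grey, 1 point per gene); the number of points stands in brackets. The 2 brightest heavy-chain probe sets and JCHAIN read above 12, the IGKC probe sets between 4.85 and 7.89, and the genes of other tissues up to 6.08.

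A pair of heavy-chain probe sets that name IGHM with variable genes of subgroup 3 lay near the top of the array and did not pass the test. Of the 13 heavy-chain probe sets, 9 named IGHM, the mu constant gene, always with other symbols, so mu cannot be read apart from the rest. Probe set 7981728 (IGHM, IGHV3-48 and the pseudogene IGHV3-69-1) had log2 intensities of 12.68, 12.59 and 12.66 in LY317615 cells, against 12.58, 12.46 and 12.57 in untreated cells. The groups did not overlap, by a margin far smaller than the signal. Its log2 fold change was 0.11 ± 0.07 (SE), with a 95% interval of -0.07 to 0.28 (adjusted p = 0.329). Probe set 7981724 (the same 3 symbols with IGLJ3, IGHG1 and IGHD) had 12.49, 12.58 and 12.59 in LY317615 cells, against 12.60, 12.55 and 12.56 in untreated cells. The groups overlapped, and the log2 fold change was -0.02 with a 95% interval of -0.19 to 0.15. Both probe sets lay at the 99.2th percentile of untreated cells, and their listed transcripts had 1 accession in common.

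A further 8 probe sets that named heavy-chain constant genes, 6 of them with variable genes, were read. Their untreated means ran from 6.80 to 9.95, and 7 of the 8 did not pass the test. Probe set 7981601, which named IGHM, IGHD, IGHG1, IGHA1, IGHA2 and the locus symbol IGH with no variable gene, read 6.75, 6.82 and 6.79 in LY317615 cells, against 6.85, 6.80 and 6.75 in untreated cells. This reading was flat, with a log2 fold change of -0.01 and a 95% interval of -0.18 to 0.15. Probe set 7981718 (IGHM and IGHV3-30) had a mean of 7.67 ± 0.10 in LY317615 cells and 7.82 ± 0.08 in untreated cells (SD, n = 3 each; adjusted p = 0.223). Probe set 7981720, which named the alpha gene IGHA1 with IGHV3-48 and IGHV3-69-1, had 8.62 ± 0.07 in LY317615 cells and 8.54 ± 0.08 in untreated cells (adjusted p = 0.535).

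Probe sets 7981722, 7981730, 7981740 and 7995263 carried the longest symbol lists, each naming mu, alpha, IGHV3-48, the kappa variable gene IGKV3-20 and the lambda joining segment IGLJ3. They share listed transcripts with each other, up to 14 of 20 accessions in a pair, and so are not separate measurements. Their log2 fold changes were -0.21, -0.25, -0.02 and 0.24, and the adjusted p was 0.271, 0.139, 0.898 and 0.108. In 7995263 the groups did not overlap: it read 9.51, 9.41 and 9.56 in LY317615 cells, against 9.40, 9.13 and 9.23 in untreated cells. It passed after cyclic loess scaling (adjusted p = 0.0387), and 7981730 passed as lower without LY317615 replicate 3 (adjusted p = 0.0433). Over all 78 pairs of heavy-chain probe sets, 41 had a listed transcript in common.

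A single probe set with constant-region symbols fell. Probe set 7981732 named IGHM, IGHD, IGHA1, IGHA2, IGH, the uncharacterised LOC102723407 and SKAP2, which encodes an adaptor protein unrelated to antibodies. It read 6.91, 6.60 and 6.90 in LY317615 cells, against 7.41, 7.16 and 7.27 in untreated cells. Every LY317615 array was below every untreated array, and the log2 fold change was -0.48 ± 0.11 (SE, adjusted p = 0.0245). The call was lost without untreated replicate 1 (adjusted p = 0.0756) or untreated replicate 3 (0.0685). SKAP2's own probe set, 8138689, read 10.52, 10.65 and 10.43 in LY317615 cells and 10.43, 10.37 and 10.38 in untreated cells, and did not pass as higher (adjusted p = 0.254).

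The largest change of any immunoglobulin probe set was the fall of IGHV5-78, annotated as a pseudogene among the heavy-chain variable segments. Probe set 7981742, which carried that symbol alone and 1 listed transcript, read 7.76, 7.94 and 7.68 in LY317615 cells, against 8.66, 8.52 and 8.60 in untreated cells. The gap between the groups was wider than the spread within either. The log2 fold change was -0.80 ± 0.09 (SE; 95% interval -1.02 to -0.58; adjusted p = 0.00219), which is 1.74-fold lower. It passed in all 16 alternative settings, with adjusted p between 0.000265 and 0.0132 where the threshold was 0.05. The other probe sets with variable symbols alone did not pass. Probe set 7981737 (IGHV3-69-1 and IGHV3OR16-7, a copy of a variable segment outside the locus) had a log2 fold change of -0.22 ± 0.13 (adjusted p = 0.270), and 8001104 (those symbols with IGHV3-48) had 0.06 ± 0.11 (adjusted p = 0.743).

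Kappa light-chain probe sets gave unequal readings. All 15 named IGKC, the kappa constant gene, 2 of them with the locus symbol IGK. In untreated cells 4 of them read 7.66 to 7.89, between the 71.3th and 73.5th percentile, and the other 11 read 4.85 to 6.24. The yardstick genes reached 6.08, so 10 of the 15 read within their range. Log2 fold changes ran from -0.75 to 0.42 with a median of 0.20, and 10 were above 0. In counts, 5 of the 15 rose and 1 fell; among the 14123 probe sets of the same range of mean intensity, 13.6% were higher and 12.8% lower.

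The 5 IGKC probe sets that rose did so by 1.31-fold or less. The first 4 of them lay close to a log2 intensity of 6. Probe set 8161563 read 5.87, 5.999 and 6.03 in LY317615 cells, against 5.64, 5.65 and 5.61 in untreated cells. The difference was 0.33 ± 0.08 on the log2 scale (SE, adjusted p = 0.0200). Probe sets 8043480, 8043484 and 8053735 changed by 0.31, 0.28 and 0.27 (adjusted p = 0.0424, 0.0374 and 0.0391). In all 4 the LY317615 arrays lay above the untreated arrays, but each pair of the 4 shared 6 listed transcripts and differed by at most 0.116 on any array, so they are not separate measurements. Another probe set of that brightness, 8043459, shares 6 listed transcripts with 8043480 and 2 each with 8043484, 8053735 and 8161563. It read 5.88, 5.93 and 5.94 in LY317615 cells, against 5.75, 5.81 and 5.91 in untreated cells. Its groups overlapped, and it did not pass (adjusted p = 0.392).

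The remaining rise was in the brighter IGKC probe sets. Probe set 8043433 read 7.98, 7.96 and 8.22 in LY317615 cells, against 7.75, 7.50 and 7.74 in untreated cells. It differed by 0.39 ± 0.11 on the log2 scale (SE, adjusted p = 0.0432). Probe sets 8043438 and 8053713, which share 8 listed transcripts with it, changed by 0.42 ± 0.15 and 0.37 ± 0.14 without passing (adjusted p = 0.0860 and 0.0948). In 8043438 the groups overlapped; in 8053713 they did not. LY317615 replicate 3 was the highest array in all 3: without it 8043433 changed by 0.30 (adjusted p = 0.0968). Probe set 8043474, which shares no listed transcript with these, read 8.06, 8.06 and 8.17 in LY317615 cells, against 7.74, 7.99 and 7.95 in untreated cells. Its groups did not overlap, and it did not pass (adjusted p = 0.151).

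These rises were not stable to the choice of arrays. None of the 5 passed without LY317615 replicate 2, untreated replicate 1, untreated replicate 2 or untreated replicate 3. Without untreated replicate 3 the only IGKC probe set to pass as higher was 8043438, which is not among the 5. Of the 5, 8161563 alone passed without LY317615 replicate 3 (adjusted p = 0.0461), and 3 passed without LY317615 replicate 1. With the array medians set equal 1 IGKC probe set was higher, and after cyclic loess 1 was (8043433, adjusted p = 0.0352). Of the 18 yardstick genes 3 passed as higher and 0 as lower, a share near the 13.6% higher in the IGKC intensity range. Their summed intensity ran from 557 to 636 over LY317615 arrays and from 491 to 514 over untreated arrays. The part of such dim readings in the IGKC result was not tested.

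One IGKC probe set went the other way. Probe set 8043436 read 5.62, 5.44 and 5.39 in LY317615 cells, against 6.57, 6.23 and 5.92 in untreated cells. The groups did not overlap, though the untreated arrays were spread widely (SD 0.324, against 0.124 in LY317615 cells). The log2 fold change was -0.75 ± 0.17 (SE, adjusted p = 0.0179), lost without LY317615 replicate 3 (adjusted p = 0.0592) or untreated replicate 2 (0.0554). It lists 2 transcripts and shares 1 with 3 of the 14 other IGKC probe sets, namely 8043433, 8043438 and 8053713, whose log2 fold changes were above 0. Probe sets with the same symbol thus disagreed in direction. The last 5, 8043360, 8043431, 8043449, 8043465 and 8043468, had log2 fold changes of -0.17 to 0.05 and did not pass.

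**Figure D3:**
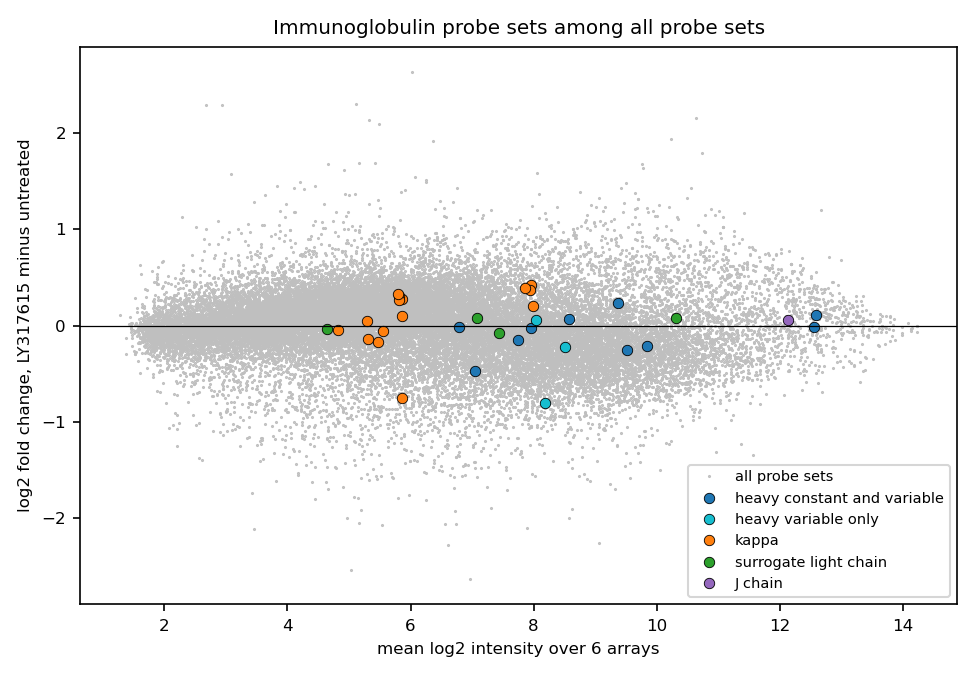
Log2 fold change (LY317615 minus untreated) against mean log2 intensity over the 6 arrays for all 33297 probe sets (grey) with the 33 immunoglobulin probe sets coloured by chain. The bright heavy-chain and JCHAIN points lie near 0, IGHV5-78 at -0.80 and 1 IGKC probe set at -0.75 lie lowest, and IGKC points form clumps above 0.

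None of the 4 surrogate light-chain and related probe sets passed the test. VPREB1, which pairs with IGLL1 on precursor B cells, read 4.82, 4.65 and 4.42 in LY317615 cells, against 4.92, 4.70 and 4.37 in untreated cells (probe set 8071646). That lies within the range of the yardstick genes, at the 30.9th percentile, and the groups overlapped (log2 fold change -0.03, 95% interval -0.42 to 0.35). VPREB3, a related gene whose protein is found with heavy or light chains inside B cells, read 10.47, 10.30 and 10.30 in LY317615 cells, against 10.28, 10.32 and 10.24 in untreated cells (probe set 8074934). It lay at the 93.4th percentile with overlapping groups (log2 fold change 0.08, 95% interval -0.11 to 0.27). IGLL1 (probe set 8074909) read 7.13 ± 0.09 in LY317615 cells and 7.05 ± 0.10 in untreated cells (SD, n = 3 each). The probe set shared by IGLL1 and its pseudogene IGLL3P, 8072004, read 7.40 ± 0.10 in LY317615 cells and 7.47 ± 0.08 in untreated cells. Lambda-like genes resemble lambda constant genes in sequence, so whether these readings hold lambda transcripts was not tested.

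JCHAIN did not pass, and its interval was narrow. Probe set 8100827 read 12.09, 12.19 and 12.20 in LY317615 cells, against 12.14, 12.08 and 12.08 in untreated cells, at the 98.7th percentile of untreated cells. The groups overlapped. The log2 fold change was 0.06 ± 0.07 (SE) with a 95% interval of -0.11 to 0.23 (adjusted p = 0.559). The interval covers array-to-array spread under the main scaling only. JCHAIN did not pass in any of the 16 alternative settings.

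The promoters of JCHAIN, VPREB3 and VPREB1, each read by a probe set of its own, are shown. These 3 genes read at the 98.7th, 93.4th and 30.9th percentile of untreated cells. IGLL1 has such a probe set too (65.1th percentile), but its promoter is not printed. Immunoglobulin promoters are known for an octamer, ATGCAAAT or its reverse complement ATTTGCAT, that the POU factors OCT1 and OCT2 bind. Any link between the octamer and these readings was not tested. The sequences are the 250 bases before the annotated start, 5′ to 3′ on the gene's strand, from RefSeq; 4 of the 21 symbols that the rule matched had an entry, the fourth being IGLL1. Capitals mark the octamer or its first 7 letters, ATGCAAA, on either strand.
JCHAIN, GRCh38.p14, chr4:70666509-70666758, minus strand: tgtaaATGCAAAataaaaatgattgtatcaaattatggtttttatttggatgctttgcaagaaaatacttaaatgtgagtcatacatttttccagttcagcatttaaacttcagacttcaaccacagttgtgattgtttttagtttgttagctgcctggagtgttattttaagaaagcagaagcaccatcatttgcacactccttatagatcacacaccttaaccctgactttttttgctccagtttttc
VPREB3, GRCh38.p14, chr22:23754426-23754675, minus strand: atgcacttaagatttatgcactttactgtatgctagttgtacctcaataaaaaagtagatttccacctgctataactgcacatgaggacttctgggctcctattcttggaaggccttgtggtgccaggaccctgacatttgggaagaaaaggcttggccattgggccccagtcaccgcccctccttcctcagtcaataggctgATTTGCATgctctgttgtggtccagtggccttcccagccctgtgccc
VPREB1, GRCh38.p14, chr22:22244536-22244785, plus strand: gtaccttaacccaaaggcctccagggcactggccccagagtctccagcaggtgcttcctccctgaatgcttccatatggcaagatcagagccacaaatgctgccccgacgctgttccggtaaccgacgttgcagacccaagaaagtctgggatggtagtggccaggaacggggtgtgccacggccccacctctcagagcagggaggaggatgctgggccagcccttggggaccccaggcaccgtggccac
The full octamer was found in VPREB3 alone among the 4, as ATTTGCAT on the printed strand at positions -47 to -40 from the start. JCHAIN held ATGCAAA, the shorter form, at positions -245 to -239. VPREB1 and IGLL1 held neither in this window. Of 35116 promoters of the same length, 1.63% held the octamer and 3.94% the 7 letters, which every octamer contains. A match describes the letters and does not show a binding site.

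Genes that control, accompany, fold or diversify immunoglobulins were followed as 4 lists, chosen with earlier results of these data known. Of 83 genes listed 76 were measured by a probe set of their own (the brightest, where there were several), and of these 2 were higher and 28 lower in LY317615 cells. Cyclic loess gave 7 higher and 25 lower, equal array medians gave 2 and 38, and the split was 5 and 37 where the prior variance followed intensity. Over all 18417 genes taken the same way, 9.36% were higher and 18.5% lower. Brightness moved with this: between log2 intensities of 7.81 and 10.43, the middle range of the listed genes, 1 of 38 listed genes was higher and 13 lower, against 7.88% higher and 40.2% lower of all 5091 genes in that range. For these 38 genes the share that fell was not above that of genes of like brightness. The other 38 listed genes were not set against such a range.

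Of 23 measured genes that control transcription of the immunoglobulin loci, 11 fell and 0 rose (median log2 fold change -0.32). The share that fell is to be read against the 40.2% lower in the middle range of brightness and the 18.5% over all genes. BACH2 and BCL6, repressors of plasma-cell fate, changed by -1.23 ± 0.07 and -1.23 ± 0.08 (SE, adjusted p = 0.000530 and 0.000583). IRF8, a partner of ETS factors at light-chain enhancers, changed by -0.88 ± 0.08. CSTF2, a polyadenylation factor linked to the choice between secreted and membrane mu, changed by -0.73 ± 0.10 (adjusted p = 0.00317). POU2F2, which encodes the octamer-binding OCT2, read 7.53 ± 0.09 in LY317615 cells and 8.11 ± 0.04 in untreated cells (SD, n = 3 each; log2 fold change -0.58). Its coactivator gene POU2AF1 read 8.41 ± 0.10 in LY317615 cells and 8.36 ± 0.16 in untreated cells and did not pass (adjusted p = 0.731). PRDM1 and IRF4, factors of plasma-cell fate, had log2 intensities of 4.97 and 5.22 in LY317615 cells, against 4.67 and 5.10 in untreated cells, within the range of the yardstick genes, and did not pass.

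Partners of the B-cell receptor moved in both directions. Of 12 measured genes 2 rose and 4 fell, against 9.36% higher and 18.5% lower over all genes taken the same way. In the middle range of brightness 40.2% were lower. CD79A and CD79B encode the chains that carry the receptor's signal: CD79A fell to 11.22 ± 0.07 in LY317615 cells, against 11.50 ± 0.02 in untreated cells (SD, n = 3 each; adjusted p = 0.0318), while CD79B read 10.67 ± 0.08 in LY317615 cells and 10.68 ± 0.13 in untreated cells (adjusted p = 0.923). CD22, an inhibitory coreceptor, changed by -1.16 ± 0.11 (SE), and FCRLA, an intracellular protein that binds immunoglobulins, by -0.63 ± 0.07. LYN, a kinase that starts receptor signalling and also restrains it, rose by 0.62 ± 0.09. FCMR, the Fc receptor for IgM, rose by 0.72 ± 0.11 (adjusted p = 0.00500); it was dim, at 5.75 ± 0.14 in LY317615 cells and 5.03 ± 0.13 in untreated cells (SD, n = 3 each). The fourth to fall was CR2, a complement receptor that was dimmer still.

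Among genes of immunoglobulin folding and secretion, 9 of 23 measured fell and 0 rose (median log2 fold change -0.23, and -0.13 after cyclic loess). Over all genes 9.36% were higher and 18.5% lower, and 40.2% were lower in the middle range of brightness. HERPUD1, a gene of endoplasmic reticulum protein disposal, changed by -0.99 ± 0.08 (SE, adjusted p = 0.00101). DNAJB9 and HSPA5, chaperones of the endoplasmic reticulum of which HSPA5 is the heavy-chain binding protein BiP, changed by -0.75 ± 0.08 and -0.57 ± 0.08. FKBP11, a prolyl isomerase gene of secretory cells, changed by -0.78 ± 0.09. MZB1, a cofactor of IgM assembly, read 8.23 ± 0.06 in LY317615 cells and 8.30 ± 0.14 in untreated cells (SD, n = 3 each) and did not pass.

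In the list of gene rearrangement and diversification, 4 of 18 measured genes fell and 0 rose. The share that fell lay near the 18.5% lower over all genes and below the 40.2% lower in the middle range of brightness. UNG, the uracil glycosylase that acts after AID in class switching, changed by -0.95 ± 0.10 (SE) and XRCC4, of end joining, by -0.84 ± 0.08. PRKDC and XRCC6, further end-joining genes, changed by -0.43 ± 0.08 and -0.40 ± 0.08 (adjusted p = 0.0117 and 0.0142). RAG1, RAG2 and DNTT, which act in V(D)J recombination of precursor cells, read 4.27 or less in LY317615 cells and 4.06 or less in untreated cells. Like VPREB1, they read within the range of the yardstick genes and did not pass.

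**Figure D4:**
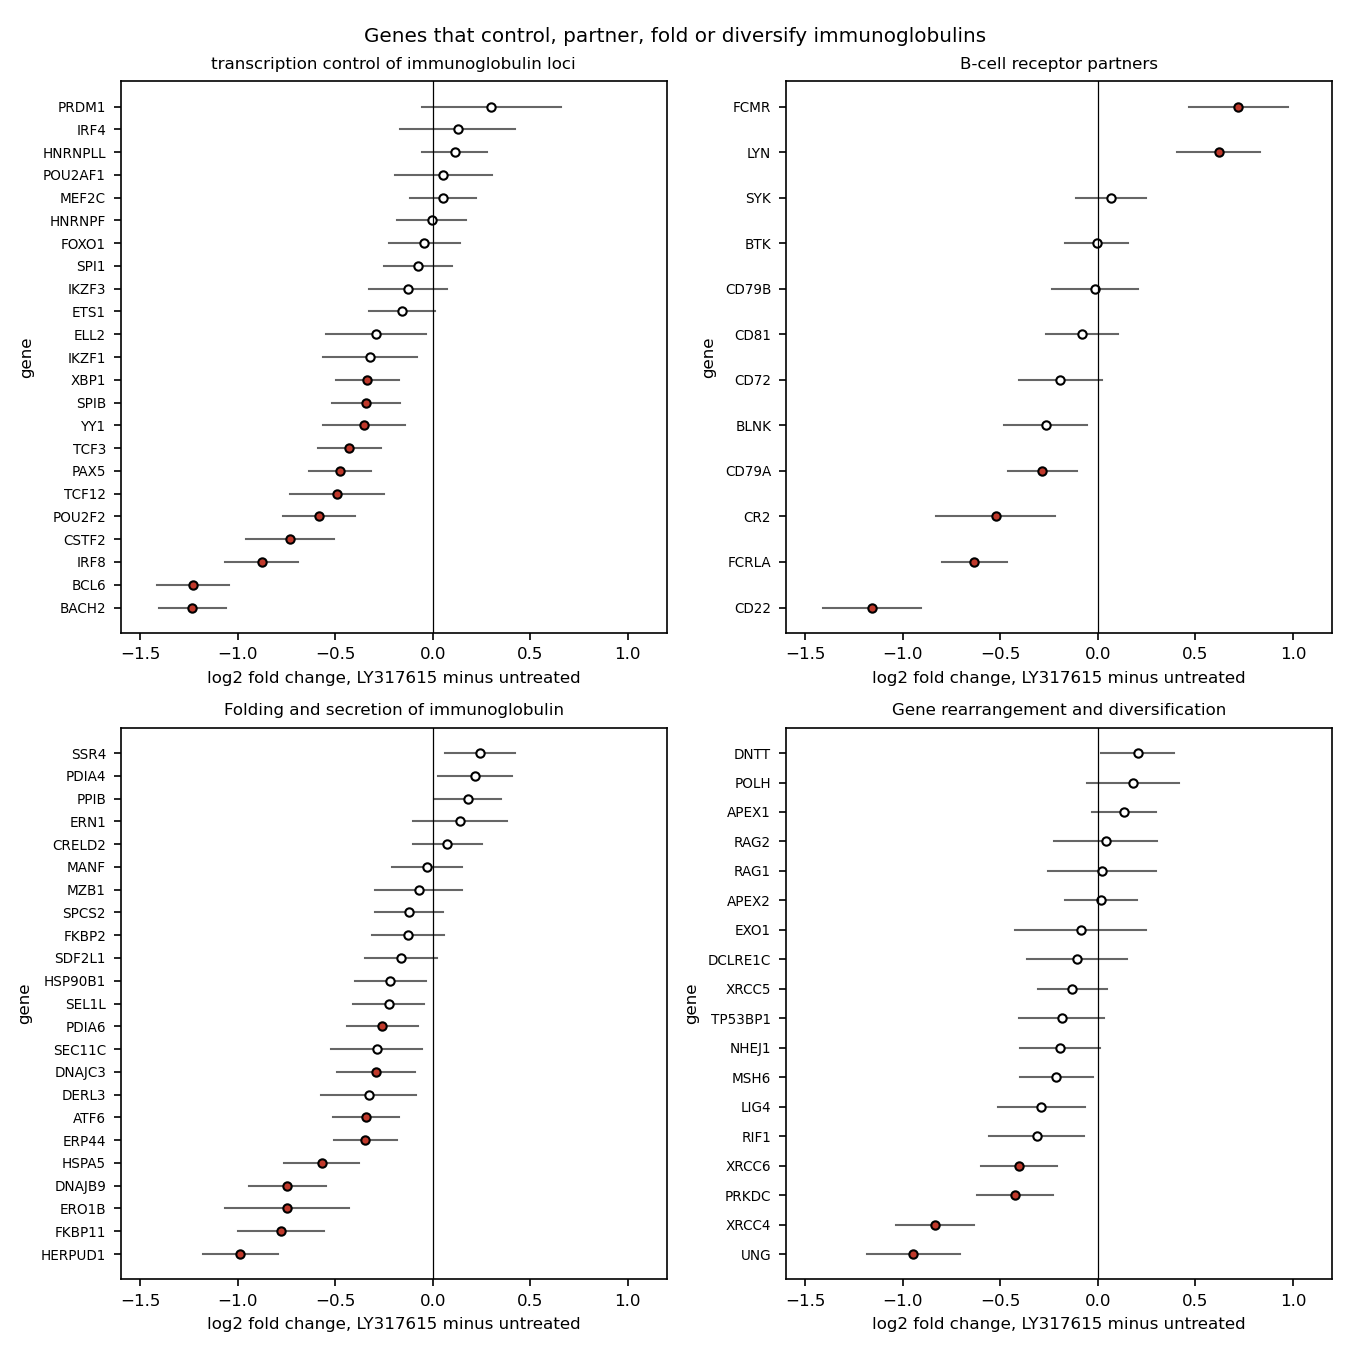
Log2 fold change, LY317615 minus untreated, with its 95% interval from limma, for the 76 measured genes of 4 lists (1 panel per list, genes sorted by value; filled points passed an adjusted p of 0.05). BACH2 and BCL6 at -1.23 lie lowest in the first list, and LYN and FCMR are the 2 filled points right of 0.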

How the data were processed

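Total RNA of RL cells was read on Affymetrix Gene 1.0 ST arrays, 3 given LY317615 and 3 untreated. The authors deposited intensities, linear in scale and running from 1.947 to 20715. Per the submitters' processing notes they used RMA, Affymetrix Expression Console and GCOS 1.4, in an order not given in the sources used here. Since RMA ends in log2 units, a return to linear values is implied but not stated. Log2 was taken here with no added constant and no further scaling. Gene symbols came from the platform annotation, and no genome build or detection call was used for the arrays, so depth does not apply and the number of arrays limits precision. Promoters came from RefSeq on GRCh38.p14.

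Every probe set was tested with limma 3.58.1 in R 4.3.3 (two-sided, eBayes without trend, Benjamini-Hochberg over 33297 probe sets, threshold 0.05). Errors are SDs over arrays or standard errors of the fit. Python 3.11.15, pandas 2.3.3 and matplotlib 3.10.9 made tables and figures. The code was tested on simulated arrays. The immunoglobulin probe sets, lists and alternatives were chosen with earlier results of these data known. The rule named every immunoglobulin probe set past the threshold, every constant-region, surrogate light-chain and J-chain probe set, the 10 brightest members and, from each list, up to 4 genes past the threshold by smallest adjusted p. POU2F2, POU2AF1, PRDM1, IRF4, CD79A, CD79B, CR2, MZB1, RAG1, RAG2, DNTT and SKAP2, and the intensity ranges used for background shares, were named after their values were seen. Alternatives were other variance priors, array weights, other scalings, filters on probe sets, a replicate block, each array left out, and a threshold of 0.01.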

Additional observations from a re-analysis of the deposited data

How the results depend on the processing

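Of the 33 immunoglobulin probe sets, 25 did not pass, and 4 of these passed in at least 1 of 16 alternatives: 7981730, 7995263, 8043438 and 8053713. The median log2 fold change of the 33 ranged from -0.03 with the array medians set equal to 0.08 without untreated replicate 1. The filter to 1 probe set per gene and single symbols left 6 members, of which 0 were higher and 1 lower. None of the 5 that rose was among them, so this 0 does not bear on them. The count of 5 higher became 2 where the prior variance followed intensity and 1 with the array medians set equal (3 lower). It became 2 after cyclic loess (3 lower) and 0 at an adjusted p of 0.01 (1 lower, IGHV5-78). With each array left out it ranged from 0 to 3, and the count lower from 2 to 3. The cause of these changes in count was not tested. Leaving out an array lowers the number of arrays and removes that array's values at once. With the replicate number as a block, 3 immunoglobulin probe sets were higher and 3 lower. Same-numbered arrays of the groups correlated in their deviations at 0.015, 0.0692 and 0.117, and different-numbered arrays at -0.112 to 0.0378. Each LY317615 array correlated most with the untreated array of its number, though all values were small. Whether the arrays were paired was not tested. The list medians of -0.32, -0.14, -0.23 and -0.16, for transcription control, receptor partners, folding and secretion, and rearrangement and diversification, were -0.23, -0.01, -0.13 and -0.06 after cyclic loess. The pathway count of 30 became 18 at an adjusted p of 0.01, with 7 for transcription control (11 otherwise), 5 for folding and secretion (9 otherwise) and 2 for rearrangement and diversification (4 otherwise). Folding and secretion gave 16 with that variance trend, 14 without the dimmest 30% of probe sets and from 5 to 8 with each array left out; rearrangement and diversification gave 7 with it and 7 with the array medians set equal. No called fold change reversed. Dim readings have no detection call to separate them from background.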

Other observations

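Plasma-cell genes that do not encode immunoglobulins were not alike in RL. Of 9 measured, 0 rose and 4 fell, against 9.36% higher and 18.5% lower over all genes with a single symbol. Between log2 intensities of 7.81 and 10.43, where CD38 and MZB1 lay, 40.2% were lower. The other plasma-cell genes lay outside that range and were not set against genes of like brightness. Whether the count sets them apart was not tested. SLAMF7 changed by -2.06 ± 0.17 (SE, adjusted p = 0.00103), TNFRSF17, which encodes the receptor BCMA, by -1.49 ± 0.16, CD38 by -0.63 ± 0.14 and XBP1, the secretory-programme factor, by -0.34 ± 0.07. SDC1, which encodes CD138, read 7.15 in LY317615 cells and 6.93 in untreated cells and did not pass (adjusted p = 0.193). The summed intensity of the 9 genes ran from 3264 to 3426 over LY317615 arrays and from 4259 to 4275 over untreated arrays. IGHMBP2, excluded by its name, had a log2 fold change of -0.38 ± 0.07 (adjusted p = 0.0119).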
